A study of Mus musculus with 16 samples.

Results

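The 10 genes described here encode enzymes that make serine, one-carbon units on folate, and the amino acids asparagine, alanine and proline, and their mRNA was followed in cultured mouse sensory neurons treated with nocodazole, a DLK inhibitor, or both. The members are Phgdh, Psat1, Psph, Shmt2, Mthfd2, Aldh1l2, Asns, Gpt2, Aldh18a1 and Pycr1, taken by name from a deposited table of counts per Ensembl identifier. All 10 were found among its 55356 identifiers, and all 10 were among the 19156 genes with enough counts to be tested. The cultures were embryonic dorsal root ganglion neurons of CD1 mice, grown with nerve growth factor and with 5-fluoro-2'-deoxyuridine and uridine, a mixture used against dividing cells. At 6 days in vitro they received inhibitor or DMSO, and 15 min later nocodazole or DMSO for 16 h.

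The 4 treatments, each with 4 libraries, were: 500 nM of the DLK inhibitor GNE3511 followed by 200 nM nocodazole (inhibitor plus nocodazole), DMSO followed by 200 nM nocodazole (nocodazole), 500 nM inhibitor followed by DMSO (inhibitor), and DMSO followed by DMSO (DMSO). Nocodazole depolymerises microtubules. DLK is a kinase that acts above the JNK pathway in neurons whose axons or cytoskeleton are damaged. The labels do not say whether replicates came from separate cultures, so the spread behind each p-value may be technical. The series set out to compare gene expression in these 4 groups under the heading of a DLK-driven response to cytoskeletal stress.

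Serine is made from a glycolytic intermediate by PHGDH, PSAT1 and PSPH acting in that order. In mitochondria SHMT2 splits serine into glycine and a one-carbon unit bound to folate, MTHFD2 oxidises that unit, and ALDH1L2 can carry it on to carbon dioxide with production of NADPH. ASNS makes asparagine, GPT2 interconverts alanine and glutamate in mitochondria, and ALDH18A1 and PYCR1 begin and end the route from glutamate to proline. In mammals many of these genes are known targets of ATF4, a transcription factor of the integrated stress response whose protein output is raised by translation control. ATF4 with a C/EBP partner binds a composite element whose core is written TGATGNAA.

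That element was searched, on both strands, in RefSeq promoter windows of GRCm38.p6 that reach from 250 bases before to 50 bases after each gene start. A window was found for 9 of the 10 members, with none for Aldh1l2. The letters TGATGNAA occurred in 2 of the 9, Asns and Pycr1, against 4.51% of all 27025 genes with a window and 3.97% of all 32851 windows. Both are shown, since the most abundant member and one of the least abundant share the element. Each is given 5' to 3' on the strand of its gene with the match in capitals. The Asns window is chr6:7693160-7693459 on the minus strand, and its match begins 23 bases upstream of the start. The Pycr1 window is chr11:120643699-120643998 on the minus strand, and its match begins 103 bases upstream. A match describes the letters only, and the lack of one says only that they are not in this window.
Asns: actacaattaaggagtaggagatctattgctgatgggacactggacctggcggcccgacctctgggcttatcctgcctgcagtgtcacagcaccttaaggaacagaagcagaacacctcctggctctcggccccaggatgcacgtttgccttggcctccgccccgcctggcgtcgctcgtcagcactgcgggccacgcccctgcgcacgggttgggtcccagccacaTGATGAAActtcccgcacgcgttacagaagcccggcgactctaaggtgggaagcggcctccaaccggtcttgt
Pycr1: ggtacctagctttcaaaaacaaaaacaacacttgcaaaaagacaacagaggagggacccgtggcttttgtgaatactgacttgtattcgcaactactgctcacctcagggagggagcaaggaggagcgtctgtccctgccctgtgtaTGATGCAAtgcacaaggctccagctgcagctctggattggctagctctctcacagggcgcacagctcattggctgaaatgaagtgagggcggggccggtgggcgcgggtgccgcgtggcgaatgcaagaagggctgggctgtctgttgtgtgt

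The libraries held 30987962 to 43321421 counts. The first principal component carried 38.2% of the variance and set the nocodazole libraries apart from the rest. Library 1 of the inhibitor plus nocodazole group lay at 10.4 on it, against -31.4 to -28.4 for the other libraries of that group. Neuronal markers were abundant, with the summed level of 11 markers at 12032.7 to 14369.1 CPM (counts scaled to a common library size) over all libraries. Single neuronal markers did move: with nocodazole without inhibitor 6 of the 11 fell by the edgeR test, the most being Elavl4 at -1.31 on the log2 scale, and 1, Avil, rose by 0.64. Between inhibitor plus nocodazole and nocodazole, 4 of the 11 were higher and 0 lower. Of all tested genes, 18.6% rose and 19% fell with nocodazole without inhibitor. In the other comparison 17.7% of all tested genes were higher and 16.2% lower. The 11 Schwann cell and satellite glia markers summed to 26.9 to 87.6 CPM with inhibitor plus nocodazole, 33.6 to 85.3 CPM with nocodazole, 42.3 to 94.3 CPM with inhibitor and 88.6 to 107.5 CPM with DMSO. Most of that sum was S100b. S100b did not pass the test (-0.79 with nocodazole, edgeR adjusted p = 0.115), and Gfap, a glial marker, was at 0 in all 4 nocodazole libraries. Of the 4 glial markers with enough counts to be tested, Apoe and Erbb3 rose with nocodazole, by 1.00 and 1.13 on the log2 scale, and 0 fell. Between inhibitor plus nocodazole and nocodazole, 2 of these 4 were lower. The 8 fibroblast markers summed to 35.2 to 55.3 CPM with inhibitor plus nocodazole, 46.6 to 77.6 CPM with nocodazole, 31.8 to 68.3 CPM with inhibitor and 48.5 to 73.7 CPM with DMSO. Of the 7 tested fibroblast markers 1, Dcn, rose with nocodazole, by 1.62. With inhibitor plus nocodazole 2 of these 7 were lower than with nocodazole and 0 were higher, at a median log2 change of -1.10. The endothelial, macrophage and dividing cell markers each summed to less than 4 CPM in every library. Of these, 1 of 2 tested macrophage and 1 of 5 tested dividing cell markers were lower with inhibitor plus nocodazole than with nocodazole. The part of these markers and of other cell types in the changes below was not tested. In these bulk samples, fewer cells of a type and less RNA per cell cannot be told apart.

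In DMSO cultures the members differed widely in level per length, given here as RPKM (CPM divided by exon length in kilobases). Asns was highest at 112.6 ± 5.34 RPKM (SD, n = 4). Phgdh at 52.8 ± 7.48 and Psat1 at 45.7 ± 4.38 RPKM came next, and their libraries overlapped. Mthfd2 at 34.8 ± 2.26, Shmt2 at 20.9 ± 1.86, Aldh18a1 at 16.0 ± 1.86, Aldh1l2 at 12.7 ± 1.52 and Gpt2 at 10.6 ± 0.442 RPKM followed. Within that run, the libraries of Aldh18a1 and Aldh1l2 overlapped, and so did those of Aldh1l2 and Gpt2. Pycr1 at 4.95 ± 0.707 and Psph at 3.15 ± 0.619 RPKM were lowest. The last enzyme of serine synthesis was therefore far less abundant as mRNA than the enzymes of the steps before it.

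**Figure D1:**
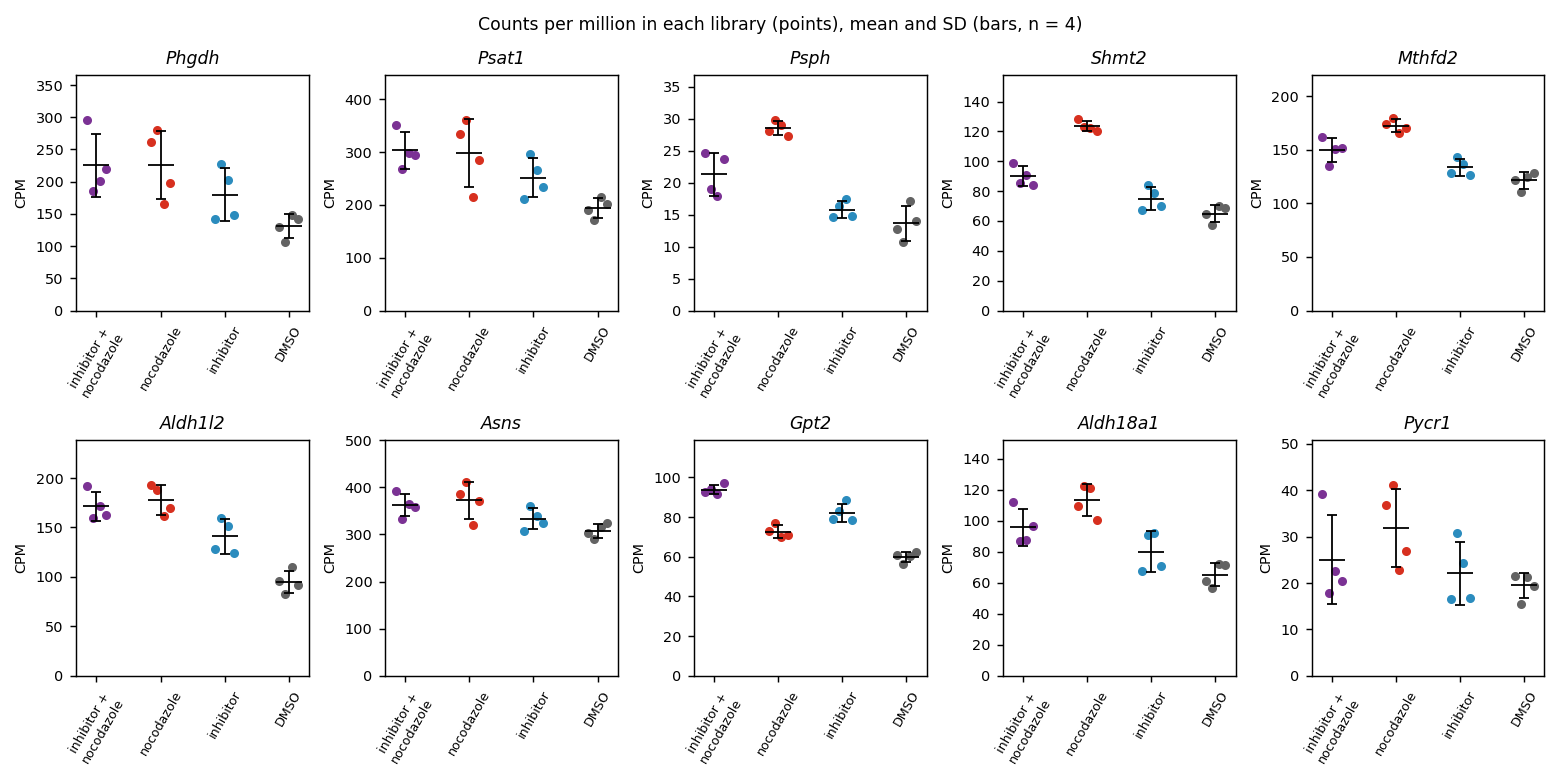
CPM of each of the 10 members in all 16 libraries (points) with the group mean and SD, for inhibitor plus nocodazole, nocodazole, inhibitor and DMSO, on linear axes that start at 0. Every nocodazole library lies above every DMSO library for each gene except Asns, and for Gpt2 the inhibitor plus nocodazole libraries are the highest.

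The first comparison asks what nocodazole did to these genes without the inhibitor. All 10 rose, by 0.27 to 1.06 on the log2 scale with a median of 0.75, where 18.6% of all tested genes rose, 19% fell and the median over all tested genes was 0.01. A gene was called when its edgeR quasi-likelihood adjusted p, by Benjamini-Hochberg over all tested genes, was below 0.05. Every nocodazole library exceeded every DMSO library for 9 of the 10 members, a pattern that 18% of all tested genes had. The rise was largest for Psph and Shmt2 and smallest for Asns and Gpt2.

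Within serine synthesis, Phgdh (ENSMUSG00000053398), which commits the glycolytic intermediate to serine, had 261, 279.8, 166 and 198 CPM in the nocodazole libraries, against 129.7, 106, 148 and 142 CPM in the DMSO libraries. The groups did not overlap, although nocodazole library 3 lay close to the highest DMSO library. Its log2 change was 0.78 ± 0.187 (SE, edgeR adjusted p = 0.00347). Psat1 (ENSMUSG00000024640), the transaminase of the next step, had 334, 362, 215 and 285 CPM with nocodazole, against 191, 171, 215 and 202 CPM with DMSO. Library 3 was again the lowest of the nocodazole libraries and stood barely above DMSO library 3. The log2 change of Psat1 was 0.62 ± 0.139 (SE, edgeR adjusted p = 0.00219). Psph (ENSMUSG00000029446), the phosphatase of the final step, had 28, 29.8, 29.1 and 27.3 CPM with nocodazole, against 12.8, 10.7, 17.1 and 14 CPM with DMSO. Its nocodazole libraries were close together and all far above DMSO. The fold change of 2.09 was the largest of the members (log2 change 1.06 ± 0.126 SE, edgeR adjusted p = 7.45e-06). On the GRCm38 annotation 452 exon bases of Psph lie opposite exons of Cct6a, which had 126521 counts in all against 11067 for Psph. The strand setting of the counting is not given in the sources used here, so the counts of Psph may hold reads of Cct6a.

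The 3 mitochondrial folate enzymes also rose. Shmt2 (ENSMUSG00000025403) had 128, 123, 122 and 120.4 CPM with nocodazole, against 64.5, 57, 70 and 68.4 CPM with DMSO. The 4 nocodazole libraries were nearly level and clear of every DMSO library. Its log2 change was 0.93 ± 0.0769 (SE, edgeR adjusted p = 2.1e-07). Mthfd2 (ENSMUSG00000005667) had 174, 180.1, 166 and 171 CPM with nocodazole, against 122, 110.3, 125 and 129 CPM with DMSO. Those groups were separate too, with a smaller step between them, and the log2 change was 0.51 ± 0.0625 (SE, edgeR adjusted p = 1.11e-05). Aldh1l2 (ENSMUSG00000020256) had 193, 188, 161 and 169 CPM with nocodazole, against 95.9, 82.7, 110.0 and 91.4 CPM with DMSO. Its groups did not overlap and its log2 change was 0.91 ± 0.0984 (SE, edgeR adjusted p = 3.2e-06). Aldh1l2 shares 1056 exon bases with D10Wsu102e on the opposite strand, so without knowledge of the strand setting its counts may hold reads of that gene.

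Among the enzymes of other amino acids, Asns (ENSMUSG00000029752) had 387, 411, 319 and 372 CPM with nocodazole, against 302, 291, 316 and 323 CPM with DMSO. Nocodazole library 3 fell below the highest DMSO library, so these groups overlapped. The log2 change of 0.27 ± 0.0747 still passed the test (SE, edgeR adjusted p = 0.00859). Gpt2 (ENSMUSG00000031700) had 72.9, 77.2, 69.8 and 70.9 CPM with nocodazole, against 60.9, 56.6, 60.3 and 62.4 CPM with DMSO. This was a small but even rise without overlap, of 0.28 ± 0.0518 on the log2 scale (SE, edgeR adjusted p = 0.000536). For proline, Aldh18a1 (ENSMUSG00000025007), which activates and reduces glutamate, had 109, 122, 121 and 100.4 CPM with nocodazole, against 60.8, 56.8, 72 and 71.2 CPM with DMSO. All 4 were above DMSO, and the log2 change was 0.79 ± 0.116 (SE, edgeR adjusted p = 5.73e-05). Pycr1 (ENSMUSG00000025140), which makes proline in the last step, had 36.7, 41.1, 22.9 and 26.8 CPM with nocodazole, against 21.6, 15.6, 21.3 and 19.4 CPM with DMSO. Libraries 1 and 2 were high and libraries 3 and 4 only just above DMSO. Its log2 change of 0.71 ± 0.249 was the least secure of the 10 (SE, edgeR adjusted p = 0.033), and the adjusted p was 0.0864 without nocodazole library 1, 0.106 without nocodazole library 2, 0.0959 without DMSO library 2 and 0.0678 without DMSO library 4.

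**Figure D2:**
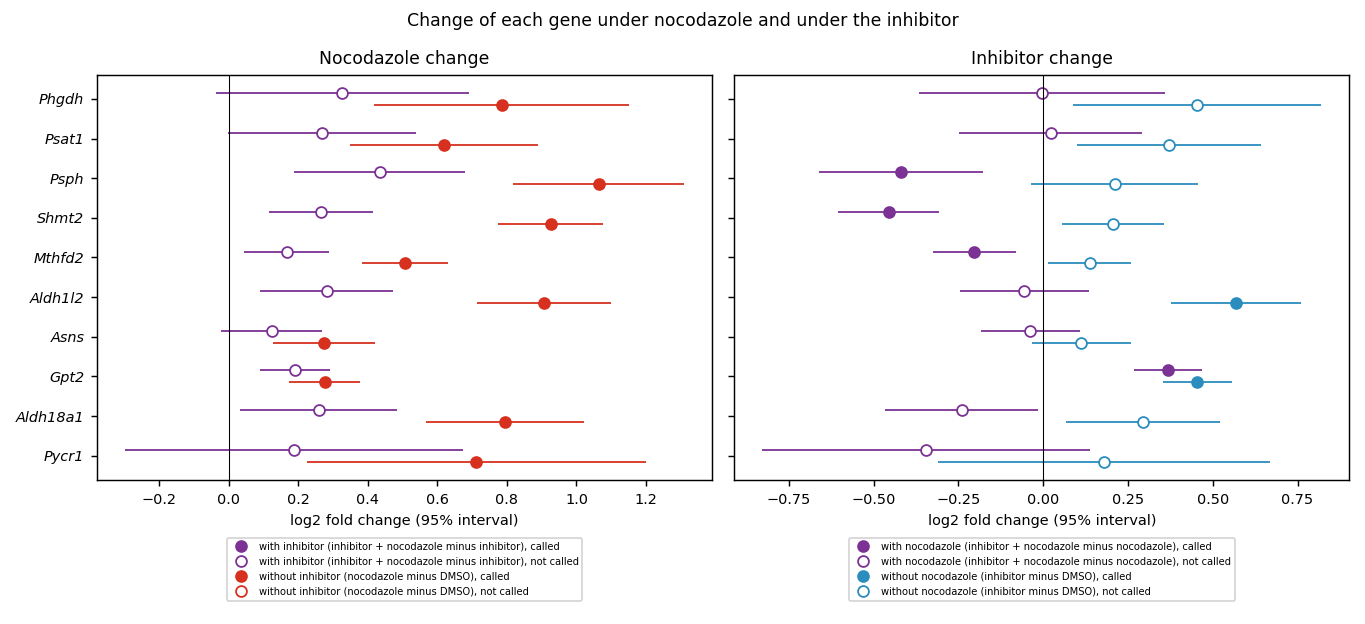
Log2 fold changes of the 10 members with approximate 95% intervals, for nocodazole with and without inhibitor (left) and for inhibitor with and without nocodazole (right). Filled circles passed the edgeR test and open circles did not. The nocodazole changes with inhibitor run from 0.12 to 0.43, those without it from 0.27 to 1.06.

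The second comparison, which shares its DMSO libraries with the first, asks what the inhibitor did on its own. All 10 members had a positive log2 change, from 0.11 to 0.57 with a median of 0.25, but only Aldh1l2 and Gpt2 passed the test, where 5.78% of all tested genes rose. Aldh1l2 had 128, 160.0, 151 and 124 CPM with inhibitor, against 95.9, 82.7, 110.0 and 91.4 CPM with DMSO. The groups did not overlap, as for 10.1% of all tested genes in this direction, and the log2 change was 0.57 ± 0.0981 (SE, edgeR adjusted p = 0.00168). Gpt2 had 79.2, 82.9, 88.4 and 78.6 CPM with inhibitor, against 60.9, 56.6, 60.3 and 62.4 CPM with DMSO. Every inhibitor library was above every DMSO library, and the log2 change was 0.45 ± 0.0517 (SE, edgeR adjusted p = 0.000126).

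Among the members that did not pass, Phgdh had 142, 227, 203 and 148 CPM with inhibitor, against 129.7, 106, 148 and 142 CPM with DMSO. Inhibitor libraries 2 and 3 were high and libraries 1 and 4 were at the level of DMSO. The log2 change was 0.45 ± 0.187 (SE, edgeR adjusted p = 0.116). Psat1 had 211, 296, 266 and 235 CPM with inhibitor, against 191, 171, 215 and 202 CPM with DMSO, with the same libraries 2 and 3 highest. Its log2 change was 0.37 ± 0.138 (SE, edgeR adjusted p = 0.0856). Psat1 did pass in 2 of the alternative fits, among them that without nocodazole library 3 (edgeR adjusted p = 0.0397). The other 6 had changes of 0.11 to 0.29, of which that of Pycr1 (0.18) turned to -0.02 without inhibitor library 2. Without inhibitor libraries 2 and 3 together, Gpt2 alone passed, and the change of Aldh1l2 was 0.41 with an edgeR adjusted p of 0.0713.

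The third comparison asks what nocodazole did in the presence of the inhibitor. No member passed the edgeR test, where 0.0835% of all tested genes (16 genes) did. The log2 changes were all positive, from 0.12 to 0.43 with a median of 0.26, and 6 members had an unadjusted p below 0.05. Without inhibitor plus nocodazole library 1, which stood apart on the first principal component, Pycr1 was at -0.11 in place of 0.19 and Phgdh was at 0.17 in place of 0.33. The DESeq2 Wald test called 1 member, Gpt2 (log2 change 0.19, adjusted p = 0.0311), and limma-voom called 0. Every inhibitor plus nocodazole library exceeded every inhibitor library for 3 members, Psph, Shmt2 and Gpt2, a pattern that 2.03% of all tested genes had. Psph had 24.6, 19, 17.9 and 23.7 CPM with inhibitor plus nocodazole, against 14.6, 16.4, 17.4 and 14.8 CPM with inhibitor. The lowest library of the first group was just above the highest of the second, and the log2 change was 0.43 ± 0.125 (SE, edgeR adjusted p = 0.325). Shmt2 had 98.9, 85.7, 90.9 and 84.4 CPM with inhibitor plus nocodazole, against 67.7, 83.8, 78.4 and 69.7 CPM with inhibitor. These groups were also only just apart, and the log2 change was 0.27 ± 0.0764 (SE, edgeR adjusted p = 0.325). Gpt2 had 92.9, 94.2, 91.4 and 97.1 CPM with inhibitor plus nocodazole, against 79.2, 82.9, 88.4 and 78.6 CPM with inhibitor. Its highest inhibitor library came close to the other group, and the change was 0.19 ± 0.0514 (log2, SE, edgeR adjusted p = 0.268).

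Whether the nocodazole change itself differed with the inhibitor was tested as the interaction, the log2 change under inhibitor less that under DMSO. It was negative for all 10 members, with a median of -0.49, and passed for 5 of them, Psph, Shmt2, Mthfd2, Aldh1l2 and Aldh18a1, where 9.2% of all tested genes had a lower and 9.52% a higher nocodazole change with inhibitor. These 5 include the whole mitochondrial folate trio. For Shmt2 the nocodazole change was smaller by 0.66 on the log2 scale (interaction -0.66 ± 0.108 SE, edgeR adjusted p = 0.00066). For Aldh1l2 the interaction was -0.62 ± 0.138 (SE, edgeR adjusted p = 0.00546), and for Mthfd2 it was -0.34 ± 0.0882 (SE, edgeR adjusted p = 0.0139). For Psph it was -0.63 ± 0.177 (SE, edgeR adjusted p = 0.0209), and for Aldh18a1 it was -0.54 ± 0.163 (SE, edgeR adjusted p = 0.0309). The Aldh18a1 call was lost in 9 of the 16 fits that left out 1 library, and that of Psph without inhibitor plus nocodazole library 3 (edgeR adjusted p = 0.0509). With the share of mitochondrially encoded counts as a covariate, described further on, only Shmt2 and Aldh1l2 passed, and without inhibitor libraries 2 and 3 only Shmt2. Phgdh at -0.46, Psat1 at -0.35, Pycr1 at -0.52 and Asns at -0.15 did not pass, with adjusted p of 0.235, 0.22, 0.312 and 0.336 from edgeR. For Gpt2 the interaction was -0.09 with an approximate 95% interval of -0.23 to 0.06.

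The fourth comparison asks how the inhibitor moved the level reached under nocodazole. Gpt2 was higher and Psph, Shmt2 and Mthfd2 were lower with inhibitor plus nocodazole than with nocodazole alone, where 17.7% of all tested genes were higher and 16.2% lower. Psph had 24.6, 19, 17.9 and 23.7 CPM with inhibitor plus nocodazole, against 28, 29.8, 29.1 and 27.3 CPM with nocodazole. Every library of the first group was lower, as for 14.2% of all tested genes, and the log2 change was -0.42 ± 0.124 (SE, edgeR adjusted p = 0.0146). Shmt2 had 98.9, 85.7, 90.9 and 84.4 CPM with inhibitor plus nocodazole, against 128, 123, 122 and 120.4 CPM with nocodazole. The gap between these groups was wide beside their spread, at -0.46 ± 0.0763 on the log2 scale (SE, edgeR adjusted p = 0.000213). Mthfd2 had 162, 135, 151 and 152 CPM with inhibitor plus nocodazole, against 174, 180.1, 166 and 171 CPM with nocodazole. It was lower in every library, by a smaller margin, at -0.20 ± 0.0623 on the log2 scale (SE, edgeR adjusted p = 0.0181). The adjusted p of Mthfd2 was 0.0526 without nocodazole library 2 and 0.0567 without inhibitor plus nocodazole library 2.

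Gpt2 went the other way. It had 92.9, 94.2, 91.4 and 97.1 CPM with inhibitor plus nocodazole, against 72.9, 77.2, 69.8 and 70.9 CPM with nocodazole. Every library of the first group was higher, as for 14.2% of all tested genes, and the log2 change was 0.37 ± 0.0516 (SE, edgeR adjusted p = 3.82e-05). Its order over the 4 groups, with inhibitor plus nocodazole highest at 93.9 ± 2.41 CPM, inhibitor at 82.3 ± 4.52, nocodazole at 72.7 ± 3.29 and DMSO lowest at 60 ± 2.49 CPM (SD, n = 4 each), was that of no other member. For Gpt2, the inhibitor and nocodazole groups were ordered the opposite way to the remaining 9 members, whose mean was higher with nocodazole than with inhibitor.

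For 4 members the levels with inhibitor plus nocodazole and with nocodazole were close. Phgdh averaged 226 ± 48.8 CPM with inhibitor plus nocodazole and 226 ± 53.2 CPM with nocodazole (SD, n = 4 each), with a 95% interval for the log2 difference of -0.37 to 0.36. Psat1 averaged 303 ± 34.5 CPM with inhibitor plus nocodazole and 299 ± 64.1 CPM with nocodazole (SD, n = 4 each), with an interval of -0.25 to 0.29. Aldh1l2 averaged 171 ± 14.9 CPM with inhibitor plus nocodazole and 178 ± 15.1 CPM with nocodazole (SD, n = 4 each), with an interval of -0.25 to 0.14. For Asns the means were 363 ± 24.2 CPM with inhibitor plus nocodazole and 372 ± 39 CPM with nocodazole (SD, n = 4 each), with an interval of -0.18 to 0.11. These intervals are approximate and somewhat too narrow, and they still leave room for modest differences in either direction. For Aldh1l2, the smaller nocodazole change under inhibitor therefore stood beside a higher level in the inhibitor group, at 141 ± 17.4 CPM, than in DMSO, at 95 ± 11.4 CPM (SD, n = 4 each).

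The proline pair lay between. Aldh18a1 had 112, 86.7, 87.3 and 96.8 CPM with inhibitor plus nocodazole, against 109, 122, 121 and 100.4 CPM with nocodazole. Pycr1 had 39.1, 17.9, 22.7 and 20.5 CPM with inhibitor plus nocodazole, against 36.7, 41.1, 22.9 and 26.8 CPM with nocodazole. In both genes library 1 was the highest of the inhibitor plus nocodazole group. The log2 changes were -0.24 ± 0.115 for Aldh18a1 and -0.34 ± 0.247 for Pycr1 (SE, edgeR adjusted p = 0.121 and 0.313). Without that library, which stood apart on the first principal component, both passed, at -0.32 for Aldh18a1 (edgeR adjusted p = 0.0358) and -0.65 for Pycr1 (edgeR adjusted p = 0.0287), which makes 6 members that differed in place of 4.

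The mitochondrial Shmt2, Mthfd2, Aldh1l2 and Gpt2 were set beside cytosolic counterparts. In DMSO cultures the member was the more abundant form per length in all 4 of these pairs. Shmt2 was at 20.9 RPKM and the cytosolic Shmt1 at 0.482 RPKM, a ratio of 43.4. Mthfd2 was at 34.8 RPKM and Mthfd1, a cytosolic enzyme of folate interconversion, at 4.65 RPKM, a ratio of 7.49. Aldh1l2 was at 12.7 RPKM and the cytosolic Aldh1l1 at 0.142 RPKM, a ratio of 89.4, and Gpt2 was at 10.6 RPKM and Gpt at 0.695 RPKM, a ratio of 15.3. Aldh1l1 had only 12 to 31 counts per DMSO library, with an SD of 0.0578 RPKM, so its ratio is unstable. That ratio also depends on reads that Aldh1l2 may share with D10Wsu102e, while the strand setting is unknown.

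**Figure D3:**
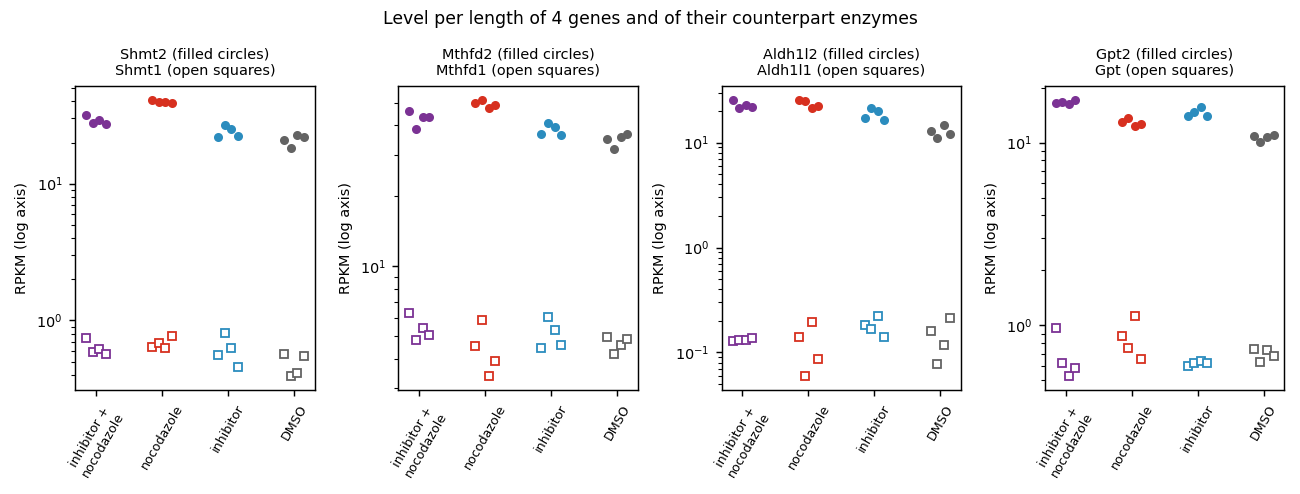
Levels of 4 members (filled circles) and their counterparts (open squares) in RPKM on a log axis, per library and group. Shmt2, Mthfd2, Aldh1l2 and Gpt2 lie above their counterparts in every group, by a ratio of 7.49 to 89.4 in DMSO cultures. The highest ratio, that of Aldh1l2 to Aldh1l1, is unstable because Aldh1l1 had few counts.

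With nocodazole, Shmt1 also rose, by 0.50 ± 0.182 on the log2 scale (SE, edgeR adjusted p = 0.0389), at 2.65 ± 0.249 CPM with nocodazole and 1.87 ± 0.353 CPM with DMSO (SD, n = 4 each). On the GRCm38 annotation Shmt1 shares 184 exon bases with Smcr8 on the opposite strand, which had 44144 counts in all against 1298 for Shmt1, so the level and change of Shmt1 and its ratio to Shmt2 are uncertain while the strand setting is unknown. Mthfd1 changed by -0.07, Aldh1l1 by -0.22 and Gpt by 0.29, none past the test (edgeR adjusted p = 0.739, 0.637 and 0.247). The log2 ratio of each member to its counterpart was compared in the 4 contrasts between groups, which makes 16 comparisons. None passed an exact two-sided permutation test after Benjamini-Hochberg adjustment over the 20 comparisons computed in all. With 4 libraries against 4 the smallest exact p is 0.0286, and 5 of the 16 reached it, at an adjusted p of 0.0952. After that adjustment no ratio could pass unless many others also reached the smallest p, so the lack of a pass decides nothing. Among them was the Mthfd2 to Mthfd1 log2 ratio, 3.16 with nocodazole and 2.55 with DMSO. Those ratios were in CPM and so are not per length.

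The members moved together over the 16 libraries to different degrees. As a description, and with treatments shared by all points, the Pearson correlation of each member's log2 CPM with the mean of the other 9 was 0.955 for Phgdh, 0.951 for Aldh1l2, 0.934 for Mthfd2, 0.934 for Aldh18a1, 0.931 for Psat1, 0.925 for Asns, 0.881 for Psph, 0.875 for Shmt2, 0.796 for Pycr1 and 0.537 for Gpt2. Gpt2 was thus the least like the others, as its order of groups shows. Of the genes outside the set, Hspa9, a mitochondrial chaperone, had the pattern most like the members' mean standardised level (r = 0.989 over 16 libraries). Slc3a2, the heavy chain of several amino acid transporters, followed at 0.988, then Cth, which makes cysteine, at 0.971, Tcea1, a transcription elongation factor, at 0.970, and Sel1l, a part of the endoplasmic reticulum degradation machinery, at 0.968. The nocodazole log2 change of Cth was 0.37 with inhibitor and 1.46 without it, and that of Slc3a2 was 0.24 with inhibitor and 0.85 without it.

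The mean standardised level of the 10 members also varied inside groups. It was 1.16, 0.04, 0.37 and 0.47 SD units in inhibitor plus nocodazole libraries 1 to 4, 1.10, 1.35, 0.32 and 0.65 in nocodazole libraries, -0.75, 0.33, 0.10 and -0.63 in inhibitor libraries and -1.15, -1.71, -0.76 and -0.92 in DMSO libraries. The share of counts from mitochondrially encoded genes was 1.71%, 1.09%, 0.944% and 0.865% in inhibitor plus nocodazole libraries 1 to 4, 1.36%, 1.5%, 0.875% and 0.977% in nocodazole libraries, 1.08%, 1.39%, 1.78% and 1.06% in inhibitor libraries and 1.07%, 0.834%, 0.909% and 0.765% in DMSO libraries. Nocodazole libraries 1 and 2, inhibitor libraries 2 and 3 and inhibitor plus nocodazole library 1 had the highest mitochondrial shares of their groups and also the highest member levels. In the deposited counts these libraries are the consecutive columns sample_5 to sample_9, a run that holds no DMSO library. What the column order stands for is not given in the sources used here. Its part in the differences from DMSO was not tested. Inhibitor plus nocodazole library 2, second of its group in share, had the lowest level there, and in DMSO the library with the highest share did not have the highest level. With that share as a covariate, chosen after the data were seen, 9 of 10 members still rose with nocodazole without inhibitor. Pycr1 was then at a log2 change of 0.32 (edgeR adjusted p = 0.116). The log2 change with inhibitor alone was 0.08 for Phgdh and 0.12 for Psat1 in that fit, against 0.45 and 0.37 without the covariate, and the interaction passed for 2 members, Shmt2 and Aldh1l2, in place of 5. Pycr1 changed sign in that fit, to -0.36 for inhibitor alone and 0.04 for the interaction, and passed in neither. The part of this share in the results was not tested beyond that fit.

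**Figure D4:**
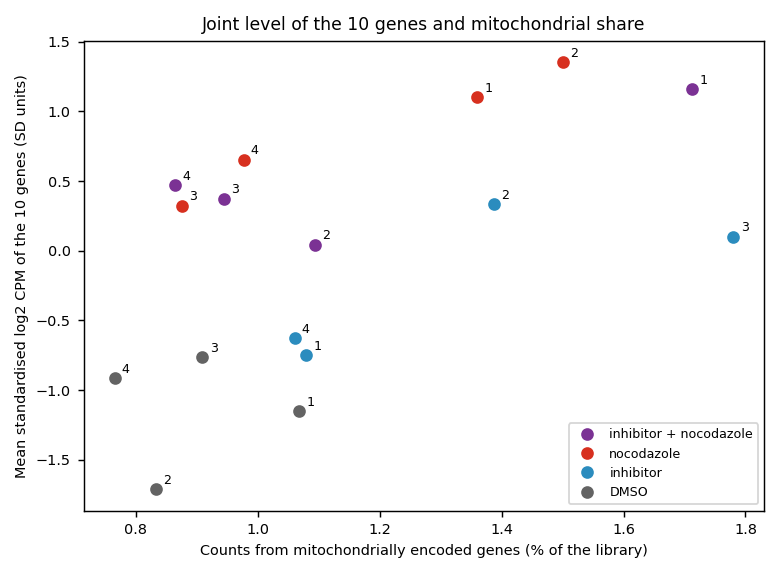
Mean standardised log2 CPM of the 10 members in each library against the percent of counts from mitochondrially encoded genes, coloured by group, with the library number beside each point. DMSO libraries lie lowest, between -1.71 and -0.76, and the 5 treated libraries with the highest shares of their groups also have the highest member levels of their groups.

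Atf4 (ENSMUSG00000042406), the regulator named above, had 384, 439.6, 354 and 329 CPM with nocodazole, against 227, 201, 254 and 262 CPM with DMSO. The groups did not overlap, and its log2 change was 0.67 ± 0.0906 (SE, edgeR adjusted p = 2.61e-05). With inhibitor plus nocodazole it had 373, 347, 377 and 414 CPM, against 281, 291, 294 and 275 CPM with inhibitor. All 4 were higher, but the log2 change of 0.41 ± 0.0903 did not pass (SE, edgeR adjusted p = 0.129). Its mean was 378 ± 27.5 CPM with inhibitor plus nocodazole and 377 ± 47.5 CPM with nocodazole (SD, n = 4 each), and the interaction of -0.27 did not pass (edgeR adjusted p = 0.152). These are mRNA levels, and ATF4 protein was not measured.

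Neighbouring pathways were counted for nocodazole without inhibitor, where 18.6% of all tested genes rose and 19% fell. Counts near those shares say nothing of a list, and no list was tested as a set. Of 17 tested genes of folate metabolism outside the set, 4 rose and 5 fell, with a median log2 change of -0.06. Mthfd1l, the mitochondrial enzyme that releases formate, was at 51.3 ± 4.3 CPM with inhibitor plus nocodazole, 86.7 ± 5.26 with nocodazole, 43 ± 4.56 with inhibitor and 44.6 ± 2.03 with DMSO (SD, n = 4 each). It rose by 0.96 ± 0.077 on the log2 scale (SE), and its interaction was -0.70 (edgeR adjusted p = 0.000422). Of 13 tested genes of glycine and serine use, 3 rose and 2 fell, among them Amt of the glycine cleavage system at 0.80 and its partner Gcsh at -0.43.

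Of 12 tested genes of the methionine cycle and transsulfuration, 5 rose and 0 fell. Cth was at 27.8 ± 8.02 CPM with inhibitor plus nocodazole, 39.5 ± 6.13 with nocodazole, 21.6 ± 6.33 with inhibitor and 14.3 ± 3.05 with DMSO (SD, n = 4 each), a nocodazole log2 change of 1.46 ± 0.22 (SE). Mat2a, which makes S-adenosylmethionine, was at 166 ± 7.6 CPM with inhibitor plus nocodazole, 272 ± 61.3 with nocodazole, 165 ± 11.9 with inhibitor and 122 ± 4.38 with DMSO (SD, n = 4 each), a change of 1.15 ± 0.112 (SE). Mtrr at 0.59 and Ahcyl2 at 0.50 also rose. Of 14 tested genes of glutamate, alanine, aspartate and branched-chain amino acid metabolism, 3 rose and 4 fell. Pck2, the mitochondrial enzyme that makes phosphoenolpyruvate, rose by 1.02 ± 0.111 (SE), Bcat1, a branched-chain transaminase, rose by 0.45, and Glul, the glutamine synthetase, fell by 0.54 on the log2 scale. Of 9 tested further genes of proline metabolism, 1 rose and 3 fell. P4ha1, which hydroxylates proline in collagen, rose by 0.73, and Aldh4a1, which acts in proline breakdown, changed by -0.38.

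Of 13 tested genes of purine synthesis, 0 rose and 4 fell, namely Gart at -0.31, Impdh1 at -0.34, Impdh2 at -0.45 and Ppat at -0.29. Of 13 tested glycolytic genes, 0 rose and 6 fell, with Hk1 at -0.34, Pfkl at -0.25, Pfkm at -0.25 and Pfkp at -0.26 among them. The lists are small, and these counts stand beside the 19% of all tested genes that fell. In none of these 7 lists was a gene called by edgeR for nocodazole with inhibitor, where 16 of all tested genes were.

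**Figure D5:**
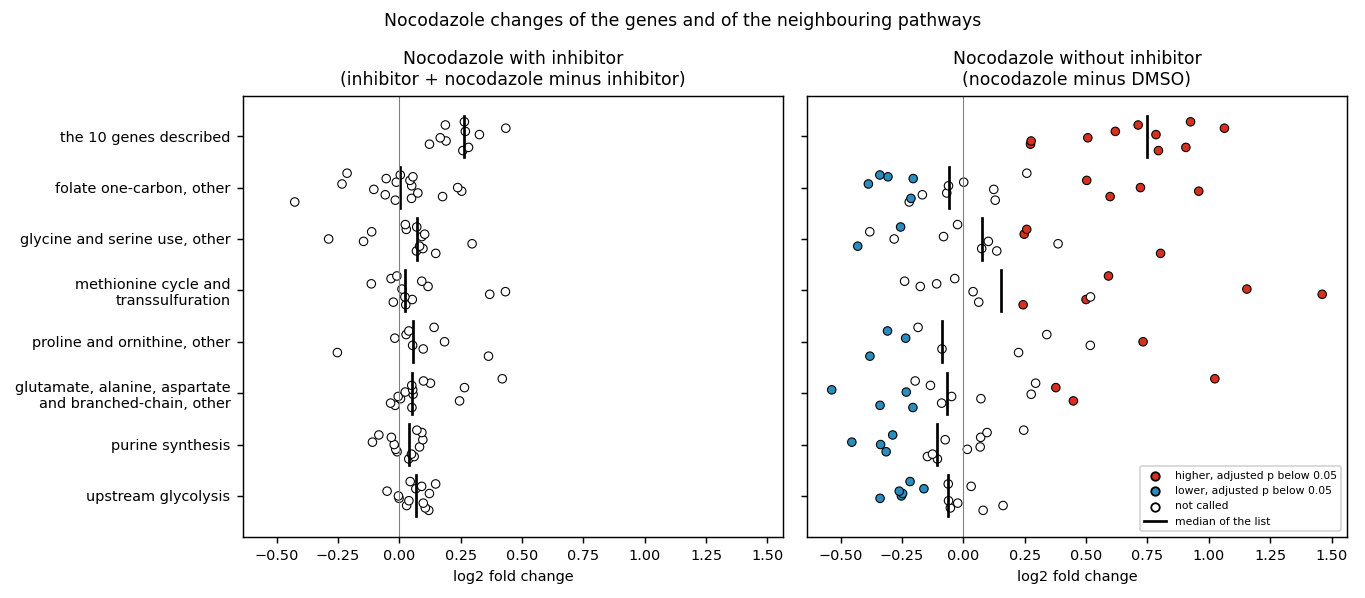
Nocodazole log2 changes of the tested genes of each list (points), with inhibitor and without it, for the 10 members and the 7 neighbouring lists, with bars at the medians and filled points for called genes. Without inhibitor the members lie from 0.27 to 1.06, whereas the purine and glycolysis lists have medians of -0.11 and -0.06.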

How the data were processed

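RNA was measured by ribosome-depleted total RNA sequencing in 16 libraries, 4 per group. The deposited table holds unnormalised counts, in whole numbers, for each Ensembl gene. Per the submitters' processing notes STAR, Salmon and GRCm39 were used, with no versions or roles, so the counts may be reads or rounded estimates. How reads shared between genes were treated, and the strand setting, are not given in the sources used here. Symbols and exon lengths came from GENCODE on GRCm38 and matched 52080 identifiers (94.1%). Columns were assigned by their names, which match the labels.

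Totals were 30987962 to 43321421 per library. In R 4.3.3, edgeR 4.0.16 scaled libraries by TMM, filtered with filterByExpr (19156 genes left), fitted a quasi-likelihood model with 1 mean per group to all 16 libraries, and gave 5 contrasts with Benjamini-Hochberg adjustment over all tested genes. A change was called below 0.05. SEs are derived from the test. Log2 CPM used a prior count of 2. At a median SE of 0.145 for a gene's log2 change, and of 0.204 for the interaction, small changes cannot be seen. The procedure was tested on simulated data. Limma 3.58.1 (voom), DESeq2 1.42.0, other scaling and filtering, 2-group fits, a replicate block and leaving out each library were the alternatives.

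The members and lists were chosen with earlier results of these data known. Named were all members, the counterparts of 4 members, Atf4, up to 4 called genes per neighbouring list by size of the nocodazole change with a mean of at least 1 CPM, and the 5 genes of most similar pattern. Some genes that this rule picks are not reported here. Promoters came from RefSeq, GRCm38.p6. Phgdh has a pseudogene, Phgdh-ps1, whose counts were 0.531% of its own.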

Additional observations from a re-analysis of the deposited data

Results flagged for a closer look

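The nocodazole change differed with the inhibitor, by the edgeR interaction with an adjusted p below 0.05, for 17 of the genes named. Of all tested genes, 9.2% had a lower and 9.52% a higher nocodazole change with inhibitor. The genes named were not a random draw, so the count of 17 is not a result about these pathways. Among the members it was lower with inhibitor for Shmt2 (-0.66), Psph (-0.63), Aldh1l2 (-0.62), Aldh18a1 (-0.54) and Mthfd2 (-0.34), all on the log2 scale. In the neighbouring lists it was lower for Mat2a (-1.14), Cth (-1.09), Mthfd1l (-0.70), Amt (-0.65), Mtrr (-0.60), Pck2 (-0.60), P4ha1 (-0.55) and Ahcyl2 (-0.45). It was higher for Aldh4a1 (0.74), Pfkm (0.37), Impdh1 (0.32) and Gart (0.31). Each of these 4 fell with nocodazole without inhibitor. Genes of the neighbouring lists were named for that same change, which the interaction subtracts. The signs of their interactions are therefore not independent of how they were picked.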

How the results depend on the processing

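Of 50 member changes refitted under up to 24 settings (1190 values), 1159 stayed on their side of the threshold, 26 calls were lost, 5 were gained and no called change turned round. The number of members called under nocodazole with inhibitor was 1 by DESeq2 against 0 by edgeR. The interaction passed for 2 members with the mitochondrial share as covariate, and without inhibitor libraries 2 and 3 together for 1 (Shmt2, -0.53, adjusted p = 0.0072), against 5. Without those libraries 1 member passed for the inhibitor alone, against 2. Both settings were chosen after seeing the data. Leaving out 1 library at a time gave 9 to 10 members for nocodazole without inhibitor, 2 to 3 for inhibitor without nocodazole, 0 for nocodazole with inhibitor, 3 to 6 for inhibitor with nocodazole and 3 to 5 for the interaction. The 3 came without inhibitor plus nocodazole library 3, where Psph had an adjusted p of 0.0509. The Aldh18a1 interaction was lost under 12 settings, with adjusted p from 0.0506 to 0.246.

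Over all genes, nocodazole with inhibitor called 16 genes, against 125 by DESeq2, 28 without a filter, 6 with only the 2 groups, 30 with the mitochondrial covariate, 0 without inhibitor libraries 2 and 3, and 3 to 88 leaving out 1 library (88 without inhibitor plus nocodazole library 1). Inhibitor without nocodazole called 2494, against 1600 with the covariate, 323 without both libraries and 1242 to 3087 leaving out 1. The interaction called 3587, against 1507 without both libraries.

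Equal replicate numbers did not pair the libraries: their correlations ran from -0.399 to 0.232, and 3 of 16 libraries correlated best with their own number. Within each group these numbers follow the order of the deposited columns. The run of consecutive columns described above holds libraries with different replicate numbers. Neither these correlations nor a replicate block can therefore detect an effect shared by that run, which was not tested. With a replicate block, 10, 2, 0, 4 and 4 members passed in the 5 contrasts, and 5 genes in all passed for nocodazole with inhibitor. No leave-one-out test of the pair ratios was run. The limit on depth is the SE, since every member had over 10 CPM in every library.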
